A study of Homo sapiens with 16 samples.

Results

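The 34 genes described here code for the main proteins of homologous recombination and of the Fanconi anemia pathway. They were chosen by name, for the place of their products in the pathway. Earlier results of these data were known when these genes and the lists compared with them were chosen. The genes were found by matching the gene identifiers of the count table to GENCODE symbols. All 34 were among the 34228 genes of the table, and all 34 passed the filter on low counts in every comparison. They fell into 8 groups by complex or role, which were 8 subunits of the Fanconi core complex, *FANCD2* and *FANCI* (2 genes), *BRCA1* with its partners (3 genes), *BRCA2* and *PALB2* (2 genes), the BCDX2 and CX3 complexes (5 genes), RAD52 and the RAD54 proteins (3 genes), the MRN complex with end resection (7 genes) and the checkpoint kinases (4 genes).

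Polyadenylated RNA was sequenced from the human melanoma lines 451Lu-R and 1205Lu-R (2 lines), both of which had been made resistant to BRAF inhibitors (BRAFi) by long culture in the BRAF inhibitor PLX4032, so the vehicle controls shared this history. Each line received either the vehicle DMSO or 2.5 μM corin, a bivalent inhibitor of the CoREST complex that blocks its histone demethylase LSD1 and its histone deacetylases, for 24 h, with 2 libraries in each of the 4 groups. None of these 8 libraries was labelled as having PLX4032 in the treatment, and the 8 libraries with PLX4032 were not analysed here. The labels do not say whether the 2 libraries of a group came from separate cultures, so the p-values below measure the spread between these libraries only.

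Homologous recombination repairs a DNA double-strand break from the intact sister chromatid. The MRN complex and nucleases first trim the broken ends to single strands, BRCA1, PALB2 and BRCA2 then prepare these strands for exchange with the sister, and the BCDX2 and CX3 complexes, RAD52 and the RAD54 proteins assist the exchange. The Fanconi pathway unhooks crosslinks between DNA strands by attaching ubiquitin to the FANCI-FANCD2 pair, and hands the resulting break to recombination. ATM and ATR are the kinases that sense such damage and pass the signal to CHEK2 and CHEK1. Recombination uses a sister chromatid, and many of these genes are transcribed mainly in S and G2 phase of dividing cells.

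The libraries held between 9516687 and 11797788 estimated counts, and the lowest count of any of the 34 genes in any library was 19. The labelled lines were checked against melanoma markers. The summed level of 9 melanocytic markers was 13712 and 13785 CPM in 451Lu-R with DMSO. CPM is the share of a library's counts, scaled to a total common to all libraries. In both 1205Lu-R DMSO libraries the sum was 33.3 CPM, from others of the 9 than *SOX10* and *TYR*, which had no counts. With corin it was 11789 and 11835 CPM in 451Lu-R and 46.1 and 43.6 CPM in 1205Lu-R. The summed level of 3 invasive melanoma markers (*AXL*, *NGFR* and *WNT5A*) was 4.99 and 3.83 CPM with DMSO in 451Lu-R. In 1205Lu-R with DMSO it was 1153 and 1170 CPM. With corin it was 363 and 356 CPM in 451Lu-R and 723 and 708 CPM in 1205Lu-R. The summed level of 6 markers of blood, endothelial and epithelial cells was 1.74 and 1.76 CPM with DMSO and 13.8 and 13.3 CPM with corin in 451Lu-R, and 10.7 and 10.8 CPM against 27.7 and 24.0 CPM in 1205Lu-R. Most of the increase was in *VWF*, and *PTPRC*, *KRT5* and *EPCAM*, which define leukocytes and epithelial cells, had 0 to 6 counts in every library. The part of these markers in the results below was not tested.

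Corin lowered the relative level of most of the 34 genes in 451Lu-R and of a smaller number in 1205Lu-R. Levels and fold changes here are relative to the other genes of a library, so a change in total RNA per cell was not measured. In 451Lu-R, 26 of the 34 genes (76.5%) were lower with corin than with DMSO at a false discovery rate (FDR) under 0.05 by edgeR's quasi-likelihood test, where 38.6% of all 14530 genes tested were lower. Only *FANCB* and *RAD51C* (2 genes) were higher, against 41.3% of all genes. In 1205Lu-R, 20 genes (58.8%) were lower, against 37.8% of all 14563 genes tested, and 8 were higher, against 40.4%. A fall of at least 2-fold was called for 12 of the 34 genes in 451Lu-R, where the share of all genes was 13.3%, and for 5 genes in 1205Lu-R, where it was 9.8%. None of the 34 rose by 2-fold or more in either line, while 22.2% and 22.0% of all genes did in 451Lu-R and 1205Lu-R.

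The median log2 fold change of the 34 genes was -0.78 for 451Lu-R and -0.31 for 1205Lu-R, and that of all genes tested was 0.03 in each line. The 20 genes that fell in 1205Lu-R also fell in 451Lu-R. *FANCG*, *BRCA1* and *CHEK1* (3 genes) fell by at least 2-fold in both lines. *MRE11*, *RAD50* and *CHEK2* (3 genes) fell in 451Lu-R and rose in 1205Lu-R. Both corin libraries lay below both DMSO libraries for 29 of the 34 genes in 451Lu-R, against 47.2% of all genes tested, and for 19 in 1205Lu-R, against 39.4%. They lay above for 2 genes in 451Lu-R and 12 in 1205Lu-R, against 42.0% and 48.7% of all genes. These library counts use CPM without TMM, the scaling between libraries used in the fits. Unscaled CPM makes falls larger in 451Lu-R and smaller in 1205Lu-R than in the fits. *ATR*, *FANCF* and *FANCL* lay below in 451Lu-R in this way but were not called.

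**Figure D1:**
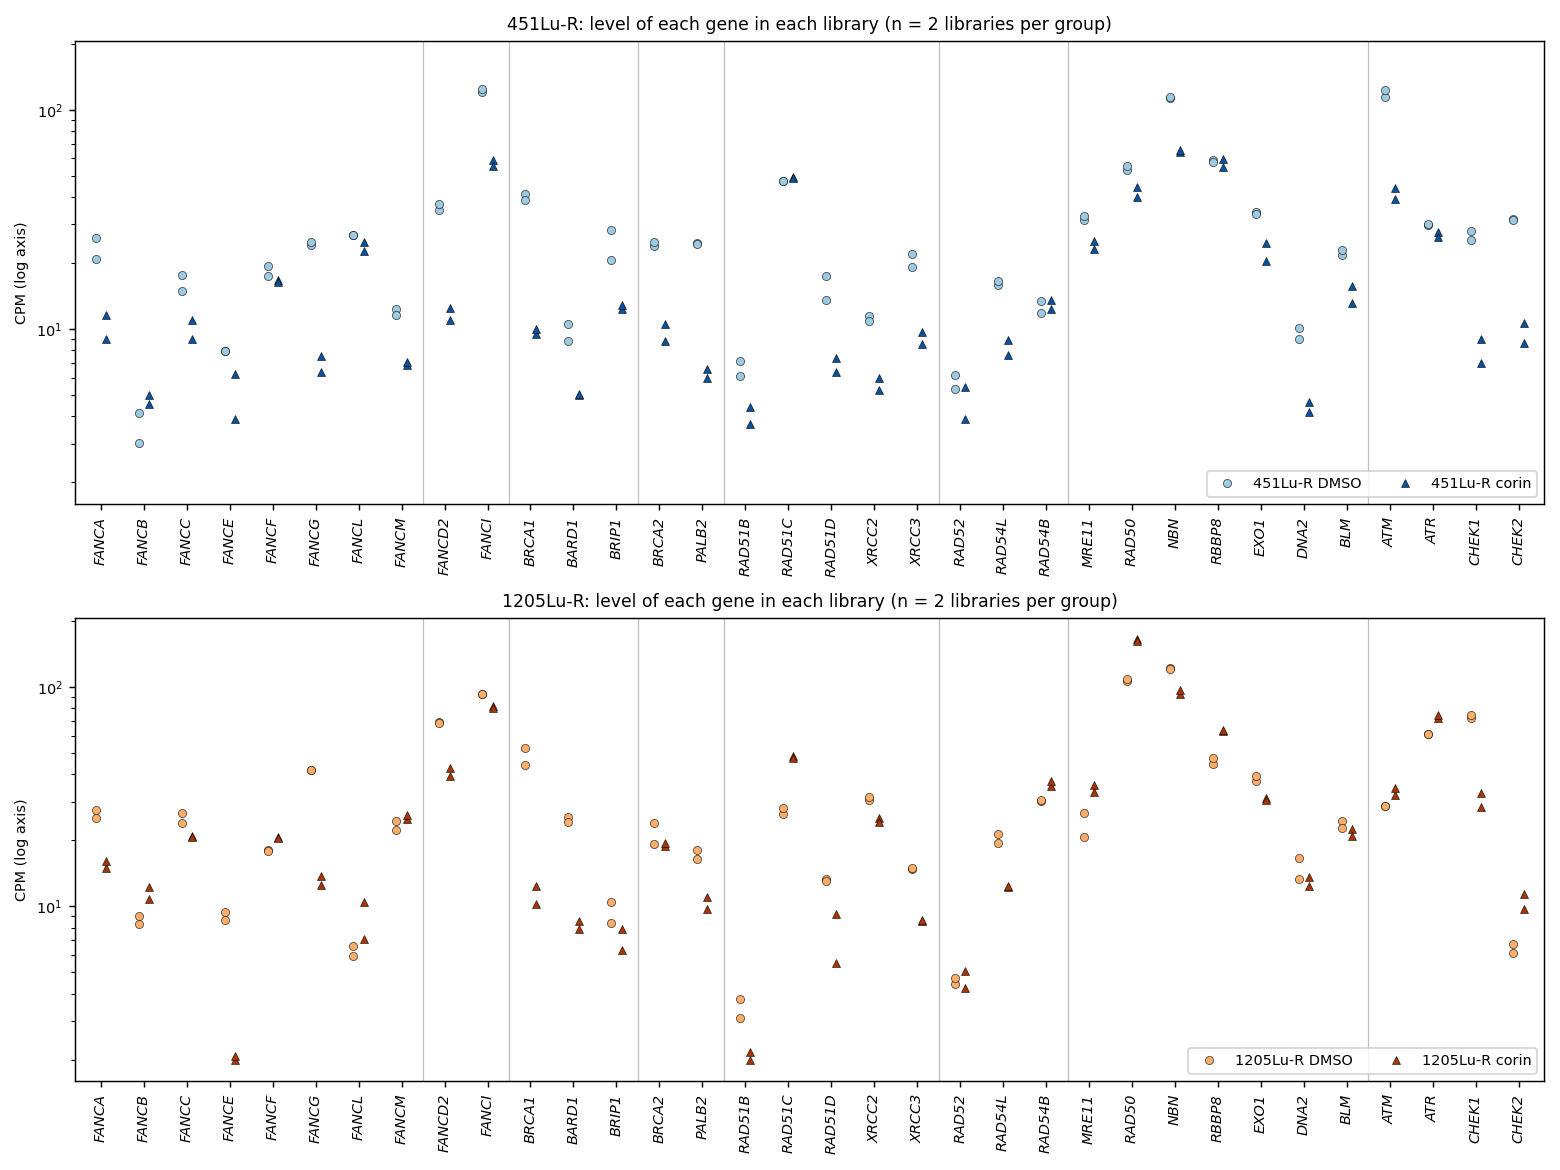
Level of each of the 34 genes in each library, in CPM on a log axis, for 451Lu-R (upper panel) and 1205Lu-R (lower panel), with circles for DMSO and triangles for corin, 2 libraries per group, and grey lines between the 8 groups of genes. In 451Lu-R the triangles lie below the circles for 29 genes, and in 1205Lu-R for 19.

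The sum over the 34 genes fell from 1082 and 1081 CPM to 630 and 597 CPM in 451Lu-R, and went from 1121 and 1143 CPM to 1014 and 1005 CPM in 1205Lu-R. The sums here are also without TMM scaling, so their falls look larger in 451Lu-R and smaller in 1205Lu-R than with it. Markers of cell-cycle phases moved beside the sum over the 34 genes. Of 26 genes that mark G1/S phase, 24 fell in each line, and their sum went from 2499 and 2509 CPM to 1137 and 1120 CPM in 451Lu-R and from 3766 and 3803 CPM to 2183 and 2195 CPM in 1205Lu-R. Of 24 genes that mark G2/M phase, 23 fell in 451Lu-R (2906 and 2966 CPM to 1101 and 1098 CPM) and 15 fell while 8 rose in 1205Lu-R (4477 and 4491 CPM to 4108 and 4168 CPM). Of all genes tested, 38.6% fell and 41.3% rose in 451Lu-R, and 37.8% fell and 40.4% rose in 1205Lu-R. The part of the markers in the result was not tested. In bulk RNA, fewer cells of a phase or type and less RNA per cell cannot be told apart.

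The promoters of the 4 genes with the deepest mean fall over both lines, among those with a RefSeq entry, are shown as those of the genes with the largest relative falls. Each is the 150 bases before the RefSeq start (GRCh38.p14), 5′ to 3′ on the strand of the gene. The letters searched on both strands were those of E2F, a family of S-phase transcription factors (TTTCCCGC, TTTCGCGC, TTTGCCGC or TTTGGCGC), the same letters without the leading T, which lie within the longer form, and the cell-cycle homology region CHR (TTTGAA). Matches to the shortened form are in capitals.
*BRCA1* (chr17:43125365-43125514, minus strand): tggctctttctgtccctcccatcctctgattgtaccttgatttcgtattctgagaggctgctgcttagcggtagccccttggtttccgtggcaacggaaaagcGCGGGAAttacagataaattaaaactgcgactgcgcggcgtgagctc
*FANCG* (chr9:35079943-35080092, minus strand): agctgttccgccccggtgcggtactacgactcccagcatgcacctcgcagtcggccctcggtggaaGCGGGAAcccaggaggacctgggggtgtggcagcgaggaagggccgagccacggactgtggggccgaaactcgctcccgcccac
*CHEK1* (chr11:125626074-125626223, plus strand): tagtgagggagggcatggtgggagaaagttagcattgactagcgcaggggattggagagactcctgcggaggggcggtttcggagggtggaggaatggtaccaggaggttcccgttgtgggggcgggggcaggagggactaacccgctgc
*FANCE* (chr6:35452188-35452337, plus strand): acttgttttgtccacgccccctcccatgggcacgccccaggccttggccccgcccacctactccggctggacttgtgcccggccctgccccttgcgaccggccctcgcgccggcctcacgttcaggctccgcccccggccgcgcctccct

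The match lay 47 to 41 bases before the start in *BRCA1* and 84 to 78 bases before it in *FANCG*. The letters were not found in the stretches shown for *CHEK1* and *FANCE*, and in *FANCE* a match began 18 bases after the start. Over the RefSeq window of 250 bases before to 50 after the start, 30 of the 34 genes had an entry. The longer E2F letters were in 5 of these 30 (16.7%), all 5 among the genes that fell in both lines, and in 6.42% of 11717 genes tested that had an entry. The shortened letters, which were added after the sequences were seen, were in 14 of 18 genes that fell in both lines (77.8%), in 3 of the other 12 (25%) and in 24.5% of genes tested. The CHR letters were in 3 of 30 (10.0%) and in 13.9% of genes tested. A match describes the letters only and was not tested for any relation to the response.

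The Fanconi core complex is the assembly that carries the ubiquitin ligase of the pathway, and corin lowered 5 of its 8 genes in 451Lu-R and 4 in 1205Lu-R. *FANCG*, a scaffold subunit, had 24.3 and 24.9 CPM with DMSO and 7.54 and 6.40 CPM with corin in 451Lu-R, and 41.8 and 41.9 CPM against 13.8 and 12.5 CPM in 1205Lu-R. Its log2 fold changes were -1.71 ± 0.12 (SE, edgeR, adjusted p = 8.45e-11) and -1.75 ± 0.09 (adjusted p = 6.82e-14), and the groups were far apart in both lines. *FANCA*, the subunit that joins *FANCG*'s product, went from 26.1 and 20.8 CPM to 8.98 and 11.6 CPM in 451Lu-R and from 27.4 and 25.2 CPM to 14.9 and 16.0 CPM in 1205Lu-R, log2 fold changes of -1.11 ± 0.13 and -0.84 ± 0.10 (SE). Both scaffold genes therefore had corin libraries below every DMSO library in both lines.

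*FANCC*, *FANCE* and *FANCF* code for the module that recognises the substrate, and they did not move alike. *FANCE*, whose product contacts FANCD2, had 9.41 and 8.66 CPM with DMSO and 1.99 and 2.07 CPM with corin in 1205Lu-R (19 and 23 counts). The log2 fold change of -2.22 ± 0.21 (SE, edgeR, adjusted p = 3.06e-09) was the deepest of the 34 genes in either line. In 451Lu-R it went from 7.98 and 7.97 CPM to 6.27 and 3.90 CPM, and its log2 fold change was -0.53 ± 0.20 (adjusted p = 0.022), which was -0.24 (adjusted p = 0.30) without corin replicate 2 and -0.93 without corin replicate 1. *FANCC* fell in both lines by less (log2 -0.59 and -0.35), from 14.9 and 17.7 CPM to 11 and 9.0 CPM in 451Lu-R and from 23.9 and 26.6 CPM to 21.0 and 20.8 CPM in 1205Lu-R. *FANCF* was not called in either line (log2 -0.06 ± 0.10 and 0.12 ± 0.10), with 16.4 to 19.5 CPM in 451Lu-R and 17.8 to 20.6 CPM in 1205Lu-R.

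*FANCB* and *FANCL* code for the catalytic module, FANCL being the ubiquitin ligase itself, and neither fell in either line. Per kb of all annotated exons, *FANCB* had the lowest level of the 34 genes in 451Lu-R with DMSO (0.269 CPM per kb). Its level was 3.03 and 4.14 CPM with DMSO and 4.58 and 5.00 CPM with corin in 451Lu-R, and 9.04 and 8.29 CPM against 12.3 and 10.8 CPM in 1205Lu-R, log2 fold changes of 0.52 ± 0.24 (adjusted p = 0.0498) and 0.33 ± 0.14 (adjusted p = 0.035, edgeR). These calls lay near the threshold. In 451Lu-R the call was lost without DMSO replicate 1 (0.30), corin replicate 1 (0.59) or corin replicate 2 (0.47), and in 1205Lu-R without DMSO replicate 1 (0.39), DMSO replicate 2 (0.25) or corin replicate 1 (0.24). *FANCL* was not called in either line, at 22.8 to 27.0 CPM in 451Lu-R and 5.96 to 10.4 CPM in 1205Lu-R (log2 0.39 ± 0.18). In 1205Lu-R its value was 0.11 to 0.65 with 1 library left out, and it was called higher without corin replicate 2 (0.65, edgeR, adjusted p = 0.0030) and with library size only in place of TMM scaling (0.46, adjusted p = 0.026). *FANCM*, the translocase that brings the complex to DNA, fell from 12.4 and 11.6 CPM to 6.87 and 7.10 CPM in 451Lu-R (log2 -0.68 ± 0.14) and had 22.3 and 24.6 CPM against 24.9 and 26.0 CPM in 1205Lu-R, where it was not called (log2 0.05 ± 0.09).

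*FANCD2* and *FANCI* code for the clamp that receives the ubiquitin, and both fell in both lines. *FANCD2* had 35.1 and 37.2 CPM with DMSO and 12.5 and 11 CPM with corin in 451Lu-R, and 69.2 and 68.4 CPM against 42.5 and 39.4 CPM in 1205Lu-R. The log2 fold changes were -1.51 ± 0.10 and -0.82 ± 0.06 (SE). *FANCI* went from 120 and 124 CPM to 58.9 and 55.6 CPM in 451Lu-R (log2 -0.99 ± 0.05) and from 92.9 and 93.0 CPM to 81.8 and 80.4 CPM in 1205Lu-R (log2 -0.27 ± 0.04). For both genes the fall was smaller in 1205Lu-R, and the difference between the lines passed its own test, by 0.65 and 0.68 on the log2 scale (edgeR, adjusted p = 6.45e-05 and 1.40e-08).

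*BRCA1*, *BARD1* and *BRIP1* all fell in both lines. *BRCA1* (chr17:43044295-43170245), whose product forms a ubiquitin ligase with BARD1 and promotes resection of the broken ends, had 41.5 and 38.9 CPM with DMSO and 9.45 and 10.0 CPM with corin in 451Lu-R. The 1205Lu-R libraries had 43.9 and 52.5 CPM with DMSO and 10.2 and 12.4 CPM with corin. The log2 fold changes were -1.95 ± 0.10 (SE, edgeR, adjusted p = 2.65e-13) and -2.16 ± 0.11 (adjusted p = 4.22e-14), the deepest of the 34 genes in 451Lu-R and, after *FANCE*, in 1205Lu-R. A difference between the lines was not called (-0.25 ± 0.17, adjusted p = 0.24).

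*BARD1* had 10.6 and 8.79 CPM with DMSO and 5.00 and 5.09 CPM with corin in 451Lu-R (log2 -0.84 ± 0.17), and 25.6 and 24.2 CPM against 7.91 and 8.57 CPM in 1205Lu-R (log2 -1.67 ± 0.12). Its fall was deeper in 1205Lu-R by 0.87 ± 0.21 on the log2 scale (edgeR, adjusted p = 0.0014). Among the 34 genes only *FANCE* and *BARD1* had a response that was called lower in 1205Lu-R than in 451Lu-R. *BRIP1*, a helicase that binds BRCA1, fell from 28.3 and 20.7 CPM to 12.3 and 12.9 CPM in 451Lu-R (log2 -0.87 ± 0.13) and had 8.40 and 10.5 CPM against 7.89 and 6.35 CPM in 1205Lu-R (log2 -0.49 ± 0.17, edgeR, adjusted p = 0.011). In 1205Lu-R the *BRIP1* call was lost without DMSO replicate 2 and without corin replicate 2, with a log2 fold change of -0.34 each time.

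*BRCA2*, which acts on the resected single strands, and *PALB2*, which bridges BRCA1 and BRCA2, fell by more in 451Lu-R than in 1205Lu-R. *PALB2* had 24.6 and 24.3 CPM with DMSO and 6.02 and 6.60 CPM with corin in 451Lu-R, and 18.1 and 16.4 CPM against 11 and 9.72 CPM in 1205Lu-R, log2 fold changes of -1.86 ± 0.12 and -0.81 ± 0.12. *BRCA2* went from 23.9 and 24.9 CPM to 10.6 and 8.80 CPM in 451Lu-R (log2 -1.22 ± 0.11). In 1205Lu-R it had 19.3 and 24.1 CPM with DMSO and 18.9 and 19.4 CPM with corin, which overlap, and a log2 fold change of -0.25 ± 0.11 (edgeR, adjusted p = 0.042). That call did not hold without DMSO replicate 2 (-0.11) or corin replicate 1 (-0.23), and the value was -0.42 without DMSO replicate 1. The differences between the lines were 1.01 ± 0.18 for *PALB2* and 0.94 ± 0.16 for *BRCA2* on the log2 scale (edgeR, adjusted p = 5.30e-05 and 6.28e-05).

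Of the 5 genes of the BCDX2 and CX3 complexes, which assist strand exchange, 4 fell and *RAD51C* rose in each line. *RAD51D* fell from 13.5 and 17.6 CPM to 7.35 and 6.34 CPM in 451Lu-R (log2 -1.07 ± 0.16) and from 13.3 and 13.1 CPM to 5.53 and 9.26 CPM in 1205Lu-R (log2 -0.88 ± 0.17), where it was -0.59 without corin replicate 1. *XRCC3* went from 22.0 and 19.2 CPM to 9.66 and 8.54 CPM in 451Lu-R (log2 -1.08 ± 0.12) and from 14.7 and 14.9 CPM to 8.58 and 8.64 CPM in 1205Lu-R (log2 -0.85 ± 0.13). *XRCC3* shares 5756 exonic bases with *KLC1* on the other strand, so its counts are uncertain where the library does not keep strand. *XRCC2* went from 11.4 and 10.9 CPM to 5.30 and 5.98 CPM in 451Lu-R (log2 -0.90 ± 0.16) and from 30.6 and 31.5 CPM to 25.3 and 24.3 CPM in 1205Lu-R (log2 -0.40 ± 0.08). *RAD51B*, the least abundant, had 7.15 and 6.11 CPM against 4.41 and 3.70 CPM in 451Lu-R and 3.80 and 3.11 CPM against 2.0 and 2.16 CPM in 1205Lu-R. Its log2 fold changes of -0.61 ± 0.20 and -0.80 ± 0.28 were called, but not by DESeq2 (adjusted p = 0.13 and 0.13), nor without DMSO replicate 1 or corin replicate 2 in 451Lu-R (-0.49 each time) and DMSO replicate 1 or corin replicate 1 in 1205Lu-R (-0.66 and -0.75).

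*RAD51C*, which takes part in both complexes, differed from its partners in direction. It had 47.3 and 47.2 CPM with DMSO and 49.3 and 48.6 CPM with corin in 451Lu-R, and 26.5 and 28.0 CPM against 48.3 and 47.4 CPM in 1205Lu-R. The log2 fold change was 0.74 ± 0.07 in 1205Lu-R (edgeR, adjusted p = 5.12e-09), the largest rise of the 34 genes in that line. In 451Lu-R it was 0.15 ± 0.06 (adjusted p = 0.039), which was not called without any 1 of the 4 libraries (0.14 to 0.17). With corin the gene thus stood at 47.4 to 49.3 CPM, without TMM scaling, in all 4 libraries of the lines.

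*RAD54L*, a motor protein that drives strand exchange, fell in both lines, from 15.9 and 16.6 CPM to 8.90 and 7.60 CPM in 451Lu-R (log2 -0.87 ± 0.13) and from 19.4 and 21.5 CPM to 12.2 and 12.4 CPM in 1205Lu-R (log2 -0.80 ± 0.11). Its relative *RAD54B* did not fall. It had 11.8 to 13.5 CPM in 451Lu-R under both treatments, and 30.1 and 30.5 CPM with DMSO against 35.5 and 37.4 CPM with corin in 1205Lu-R (log2 0.19 ± 0.07, edgeR, adjusted p = 0.024). That call was lost without DMSO replicate 1 (0.17), DMSO replicate 2 (0.18) or corin replicate 2 (0.15), and 3511 exonic bases of *RAD54B* are shared with *FSBP* on the same strand. *RAD52*, which anneals complementary strands, had 3.90 to 6.15 CPM in 451Lu-R and 4.23 to 5.05 CPM in 1205Lu-R and was not called (log2 -0.17 ± 0.21 and -0.06 ± 0.21).

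In the MRN complex, *MRE11* and *RAD50* moved in opposite directions in the 2 lines and *NBN* did not. *MRE11*, its nuclease, fell from 31.5 and 32.8 CPM to 23.1 and 25.2 CPM in 451Lu-R (log2 -0.32 ± 0.08, edgeR, adjusted p = 0.0017). In 1205Lu-R *MRE11* rose from 26.7 and 20.7 CPM to 35.6 and 33.1 CPM (log2 0.45 ± 0.10, adjusted p = 2.47e-04), a rise of 0.26 without DMSO replicate 2. *RAD50*, the ATPase that tethers the ends, fell from 53.3 and 55.3 CPM to 44.5 and 40.1 CPM in 451Lu-R (log2 -0.25 ± 0.07) and rose from 106 and 108 CPM to 166 and 161 CPM in 1205Lu-R (log2 0.53 ± 0.04, adjusted p = 2.47e-11). The groups did not overlap in either line for these genes. *NBN*, which recruits ATM to the complex, fell in both lines, from 113 and 115 CPM to 64.4 and 65.5 CPM (log2 -0.71 ± 0.05) and from 122 and 121 CPM to 92.8 and 96.7 CPM (log2 -0.43 ± 0.04). The response was higher in 1205Lu-R for all 3 subunits, by 0.73 ± 0.14, 0.75 ± 0.07 and 0.25 ± 0.06 on the log2 scale (edgeR, adjusted p = 1.30e-04, 2.27e-08 and 0.0020).

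Among the resection factors, *EXO1*, *DNA2* and *BLM* fell in 451Lu-R and *RBBP8* did not. *RBBP8* codes for CtIP, the activator of MRE11. Per kb of all annotated exons, it had the highest level of the 34 genes in 451Lu-R with DMSO (11.5 CPM per kb). It had 54.7 to 59.8 CPM in 451Lu-R under both treatments (log2 0.08 ± 0.06) and rose from 44.7 and 47.5 CPM to 63.2 and 63.3 CPM in 1205Lu-R (log2 0.38 ± 0.06, edgeR, adjusted p = 4.45e-06). *EXO1*, an exonuclease, fell from 34.2 and 33.6 CPM to 24.6 and 20.5 CPM in 451Lu-R (log2 -0.48 ± 0.09) and from 37.1 and 39.4 CPM to 31.3 and 30.5 CPM in 1205Lu-R (log2 -0.38 ± 0.07), separate groups in each line. *DNA2*, a nuclease with helicase activity, fell from 10.1 and 9.0 CPM to 4.66 and 4.20 CPM in 451Lu-R (log2 -1.0 ± 0.17). In 1205Lu-R it had 13.3 and 16.7 CPM with DMSO and 13.6 and 12.4 CPM with corin, which overlap, and was not called (log2 -0.28 ± 0.13, edgeR, adjusted p = 0.055), although it was without DMSO replicate 1 (-0.45) or corin replicate 1 (-0.34). *BLM*, the helicase that unwinds ends for DNA2, went from 21.8 and 22.9 CPM to 13.2 and 15.7 CPM in 451Lu-R (log2 -0.53 ± 0.11). In 1205Lu-R it went from 24.6 and 22.7 CPM to 22.4 and 20.9 CPM, and its log2 fold change was -0.21 ± 0.09 (adjusted p = 0.048), which was not called by DESeq2 (adjusted p = 0.20) or without DMSO replicate 1 (-0.17) or corin replicate 2 (-0.16).

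The 4 checkpoint kinases did not respond alike. *CHEK1*, the effector kinase of the ATR branch, fell in both lines, from 28.2 and 25.6 CPM to 8.98 and 7.0 CPM in 451Lu-R and from 72.1 and 74.8 CPM to 32.9 and 28.4 CPM in 1205Lu-R. The log2 fold changes were -1.64 ± 0.12 and -1.34 ± 0.07 (SE, edgeR, adjusted p = 1.97e-10 and 5.45e-14). *ATR* itself had 30.0 CPM in both DMSO libraries and 27.6 and 26.3 CPM with corin in 451Lu-R, where it was not called (log2 -0.05 ± 0.08). In 1205Lu-R it had 61.3 and 60.8 CPM with DMSO and 72.4 and 74.2 CPM with corin (log2 0.19 ± 0.05, edgeR, adjusted p = 0.0018, and 0.16 with adjusted p = 0.12 by DESeq2).

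*CHEK2* (chr22:28687743-28742422), the effector kinase of the ATM branch, moved in opposite directions. It fell from 31.7 and 31.4 CPM to 10.6 and 8.64 CPM in 451Lu-R (log2 -1.61 ± 0.11, SE, edgeR, adjusted p = 3.32e-11). It rose from 6.13 and 6.74 CPM to 9.68 and 11.4 CPM in 1205Lu-R (log2 0.64 ± 0.16, adjusted p = 8.47e-04). The difference of 2.21 ± 0.19 on the log2 scale (adjusted p = 2.48e-09) was the largest of the 34 genes. *CHEK2* has near-identical pseudogene copies in the genome and shares 293 exonic bases with *HSCB* on the other strand, so its counts are uncertain to that extent.

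*ATM* (chr11:108223044-108369102) fell in 451Lu-R from 114 and 123 CPM to 43.9 and 39.0 CPM, with a log2 fold change of -1.41 ± 0.06 (SE, edgeR, adjusted p = 2.99e-14). In 1205Lu-R it had 28.5 and 28.6 CPM with DMSO and 32.3 and 34.6 CPM with corin, which was not called (log2 0.16 ± 0.08, adjusted p = 0.071). It was called higher with library size only (0.23, edgeR, adjusted p = 0.010) and with the filter set to a mean of at least 1 CPM (0.17, adjusted p = 0.049). The difference between the lines was 1.53 ± 0.10 (adjusted p = 3.65e-11). For *ATM* and *CHEK2* alike, the 451Lu-R DMSO libraries stood above the other 6 libraries, and the levels of the lines were nearer to each other with corin than with DMSO.

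**Figure D2:**
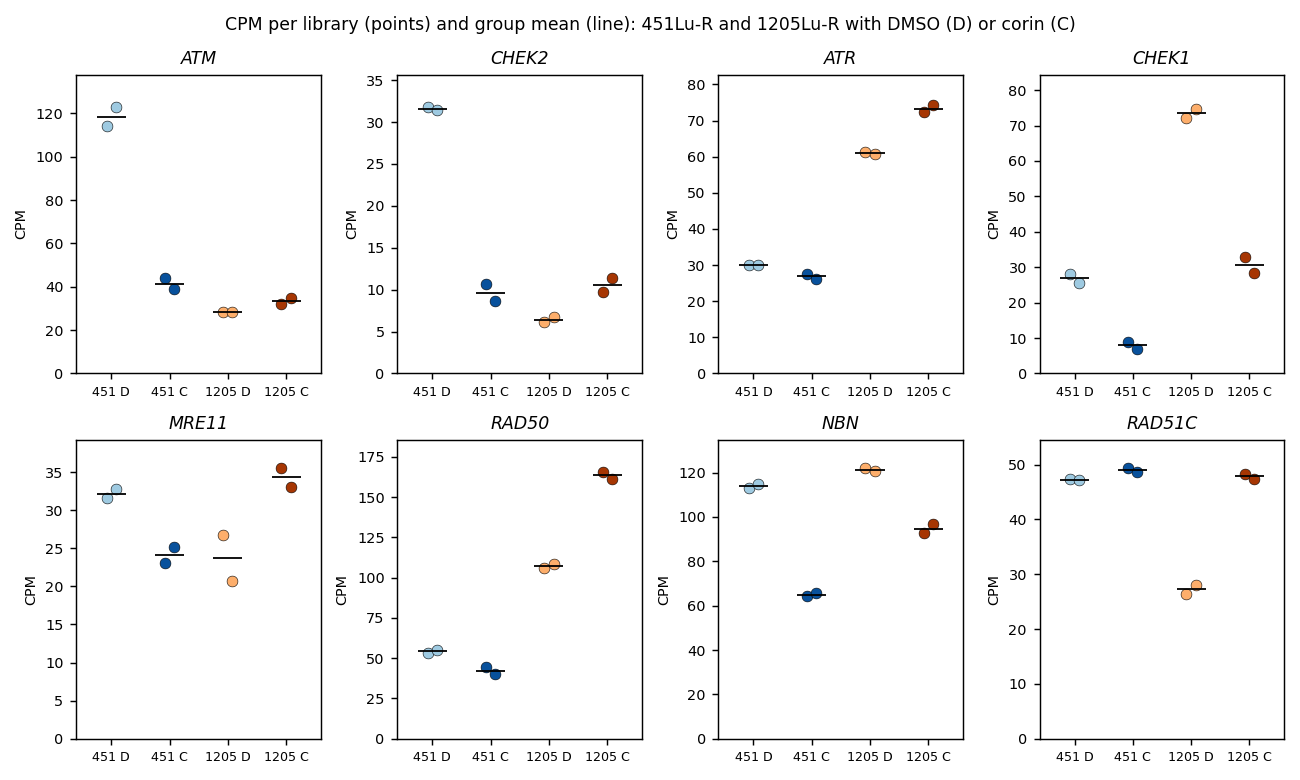
Level in CPM of the 4 checkpoint kinases, the 3 MRN subunits and *RAD51C* in each library (points) with the group mean (line), for 451Lu-R and 1205Lu-R with DMSO (D) or corin (C), each axis starting at 0. *CHEK2* falls from 31.7 and 31.4 CPM to 10.6 and 8.64 CPM in 451Lu-R and rises from 6.13 and 6.74 CPM to 9.68 and 11.4 CPM in 1205Lu-R.

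The difference in corin response between the lines was tested for every gene with an interaction term over the 8 libraries. It was called for 16 of the 34 genes, which was near the share of all genes in either direction, 49.7%. Of the 16, 14 were higher in 1205Lu-R, against 22.6% of all 16062 genes tested, and 2 were lower, against 27.1%. With library size only in place of TMM scaling, 21 were higher and 2 lower, *FANCA*, *FANCC*, *FANCF*, *FANCL*, *BLM*, *ATR* and *CHEK1* being added, while of all genes 5344 were higher and 3003 lower. A difference of at least 2-fold was called for *ATM*, *CHEK2* and *PALB2* (3 genes, higher in 1205Lu-R), against 9.34% of all genes, and for *FANCE* (1 gene, lower), against 9.46%. By group, the response was higher in 1205Lu-R for both genes of the FANCI-FANCD2 clamp, both of *BRCA2* and *PALB2*, 2 of the 5 BCDX2 and CX3 genes (*RAD51C* and *XRCC2*), 5 of the 7 MRN and resection genes and 2 of the 4 kinases. Among the 8 core complex genes, 1 was higher (*FANCM*) and 1 lower (*FANCE*), and none of the RAD52 and RAD54 genes was called, with values from 0.02 to 0.08 on the log2 scale and SE of 0.14 to 0.31. With 1 library left out, the call was lost for *XRCC2* (0.46) without DMSO or corin replicate 1 of 451Lu-R or DMSO replicate 1 of 1205Lu-R (0.38 to 0.43). It was lost for *DNA2* (0.69) without DMSO replicate 1 of either line (0.58 and 0.52). For *RBBP8* (0.27) it was lost without DMSO replicate 1 of either line or corin replicate 2 of 451Lu-R (0.22 to 0.23). None of these 3 was called by DESeq2. A call was gained for *FANCL* (0.70) without corin replicate 2 of 1205Lu-R, for *BRIP1* (0.54) without DMSO replicate 2 of 451Lu-R, for *BLM* (0.42) without corin replicate 2 of 451Lu-R and for *CHEK1* (0.49) without corin replicate 1 of 451Lu-R. All 24 G2/M markers also had a higher response in 1205Lu-R (median difference 1.09), while 6 of the 26 G1/S markers were higher and 10 lower. The part of these markers in the result was not tested.

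**Figure D3:**
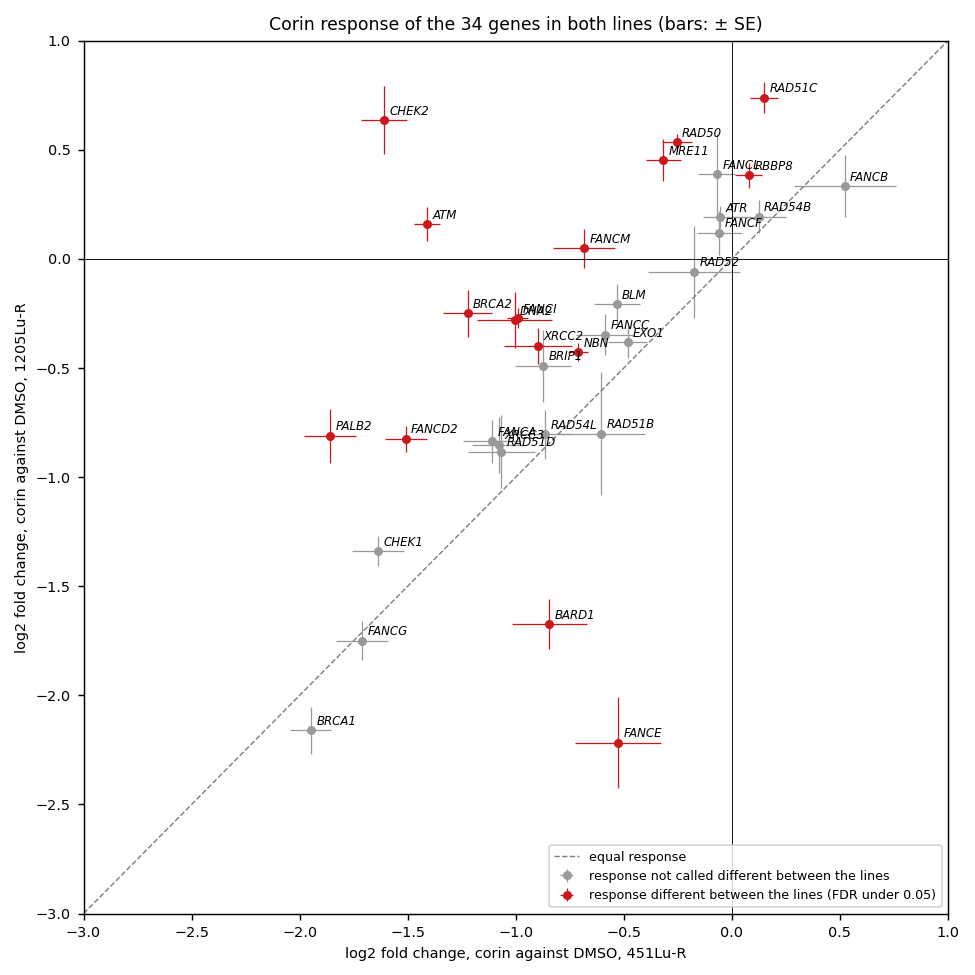
Log2 fold change with corin against DMSO of each of the 34 genes in 451Lu-R (x axis) and 1205Lu-R (y axis), with bars for the SE, a dashed line of equal response, and red for the 16 genes whose response differed between the lines at an FDR under 0.05. *CHEK2*, at -1.61 and 0.64, lies farthest above the line and *FANCE*, at -0.53 and -2.22, farthest below it.

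Levels of the 34 genes also differed between the lines before treatment, in about the same share as among all genes tested. With DMSO, 17 of the 34 genes were higher in 1205Lu-R, against 41.0% of all 14104 genes tested, and 11 were lower, against 41.5%. A difference of at least 2-fold was called for 9 genes that were higher in 1205Lu-R, against 19.6% of all genes, and for 4 that were lower, against 21.8%. The higher genes were led by *XRCC2*, *CHEK1* and *BARD1* (log2 1.58 ± 0.10, 1.55 ± 0.07 and 1.47 ± 0.11), and *ATR*, *RAD50*, *FANCM* and *FANCD2* were each higher by between 1.04 and 1.13 on the log2 scale. The 4 lower genes were *CHEK2* (-2.18 ± 0.11), *FANCL* (-1.99 ± 0.12), *ATM* (-1.95 ± 0.06) and *BRIP1* (-1.27 ± 0.14). The kinases of the ATM branch were thus lower and those of the ATR branch higher in 1205Lu-R than in 451Lu-R.

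*FANCB* (1.39 ± 0.20) and *RAD54B* (1.36 ± 0.10) were the other genes at least 2-fold higher in 1205Lu-R with DMSO. Smaller differences that were called higher were those of *FANCG* (0.87), *FANCC* (0.75), *DNA2* (0.75), *RAD54L* (0.44), *BRCA1* (0.36), *EXO1* (0.28), *FANCA* (0.26) and *NBN* (0.20). Those called lower were *RAD51B* (-0.84), *RAD51C* (-0.69), *PALB2* (-0.40), *XRCC3* (-0.37), *MRE11* (-0.33), *FANCI* (-0.29) and *RBBP8* (-0.23). The call for *FANCA* was lost without 451Lu-R DMSO replicate 2 (0.11) or 1205Lu-R DMSO replicate 1 (0.21), that for *XRCC3* without 451Lu-R DMSO replicate 1 (-0.28) and that for *MRE11* without 1205Lu-R DMSO replicate 2 (-0.15). *FANCE*, *FANCF*, *BRCA2*, *RAD51D*, *RAD52* and *BLM* were not called (-0.21 to 0.29), although *RAD51D* was without 451Lu-R DMSO replicate 1 (-0.32) and *BLM* without 1205Lu-R DMSO replicate 2 (0.26). Per kb of exonic sequence, the highest levels with DMSO in 451Lu-R were those of *RBBP8* (11.5), *EXO1* (8.20) and *CHEK2* (7.03 CPM per kb). In 1205Lu-R they were those of *CHEK1* (13.1), *RAD50* (10.1) and *EXO1* (9.25 CPM per kb). This length, the union of all annotated exons, can exceed that of a transcript, so these ranks depend on the annotation.

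Other genes of the same pathways were counted in the same fits. Among all genes tested, 38.6% fell and 41.3% rose in 451Lu-R, and 37.8% fell and 40.4% rose in 1205Lu-R. For the further Fanconi factors the shares that fell were 62.5% and 68.8%. Of 16 further Fanconi factors tested, 10 fell and 2 rose in 451Lu-R (median log2 -0.35), and 11 fell and 1 rose in 1205Lu-R (median -0.33). *FAAP24*, which binds FANCM to DNA, was the deepest, from 5.71 and 6.35 CPM to 1.20 and 1.44 CPM in 451Lu-R (log2 -2.11 ± 0.27) and from 10.8 and 9.60 CPM to 1.74 and 2.39 CPM in 1205Lu-R (log2 -2.32 ± 0.21). *EME1*, a partner of the nuclease MUS81, fell from 13.4 and 12.8 CPM to 5.26 and 3.80 CPM in 451Lu-R (log2 -1.42 ± 0.17). In 1205Lu-R it had 11.1 and 12.3 CPM against 12.3 and 9.27 CPM, which overlap, and was not called (log2 -0.21 ± 0.14). There it was called lower without corin replicate 1 (-0.41, edgeR, adjusted p = 0.022).

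Of 20 further recombination factors, 8 fell and 6 rose in 451Lu-R (median 0.04) and 9 fell and 5 rose in 1205Lu-R (median -0.15). The shares that fell, 40% and 45%, were near those of all genes, 38.6% and 37.8%. As a list these factors lay nearer the median of all genes than the 34 did. *RAD51AP1*, an accessory factor of strand exchange, fell from 19.1 and 18.2 CPM to 3.22 and 4.0 CPM in 451Lu-R (log2 -2.28 ± 0.15) and from 40.9 and 39.8 CPM to 11.0 and 8.82 CPM in 1205Lu-R (log2 -2.11 ± 0.10). *RTEL1*, a helicase that takes apart recombination intermediates, fell from 26.8 and 28.4 CPM to 4.63 and 5.92 CPM and from 52.1 and 56.1 CPM to 9.47 and 10.7 CPM (log2 -2.30 ± 0.13 and -2.49 ± 0.09). The groups did not overlap for either gene in either line.

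Of 23 further BRCA1-A and checkpoint factors, 12 fell and 3 rose in 451Lu-R (median -0.37) and 14 fell and 3 rose in 1205Lu-R (median -0.31). The shares that fell were 52.2% and 60.9%, against 38.6% and 37.8% of all genes. *TOPBP1*, the activator of ATR, fell from 69.9 and 74.4 CPM to 24.6 and 25 CPM in 451Lu-R and from 165 and 164 CPM to 48.3 and 50.4 CPM in 1205Lu-R (log2 -1.44 ± 0.07 and -1.80 ± 0.04). *BABAM1*, a subunit of the BRCA1-A complex, fell from 50.1 and 57.8 CPM to 19.7 and 20.8 CPM and from 82.2 and 87.4 CPM to 39.8 and 44.1 CPM (log2 -1.31 ± 0.09 and -1.08 ± 0.06). Over the 59 further pathway genes tested, 30 fell (50.8%) and 11 rose in 451Lu-R and 34 fell (57.6%) and 9 rose in 1205Lu-R.

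End joining is the repair route that does not use a sister chromatid. It had 10 of 14 genes lower and 2 higher in 451Lu-R (median -0.72) and 9 lower and 2 higher in 1205Lu-R (median -0.57). The shares that fell were 71.4% and 64.3%, against 38.6% and 37.8% of all genes. *LIG4*, the ligase of classical end joining, rose from 19.4 and 20.1 CPM to 47.6 and 47.4 CPM in 451Lu-R and from 15.7 and 14.1 CPM to 25.7 and 24.9 CPM in 1205Lu-R (log2 1.37 ± 0.08 and 0.69 ± 0.10). *POLQ*, the polymerase of the alternative route, fell from 40.6 CPM in both libraries to 12.8 and 12.5 CPM and from 46.8 and 44 CPM to 22.5 and 22.0 CPM (log2 -1.58 ± 0.09 and -1.10 ± 0.08). The median fall of the 14 end-joining genes was thus near that of the 34 recombination and Fanconi genes in 451Lu-R and deeper in 1205Lu-R, a description without a test.

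**Figure D4:**
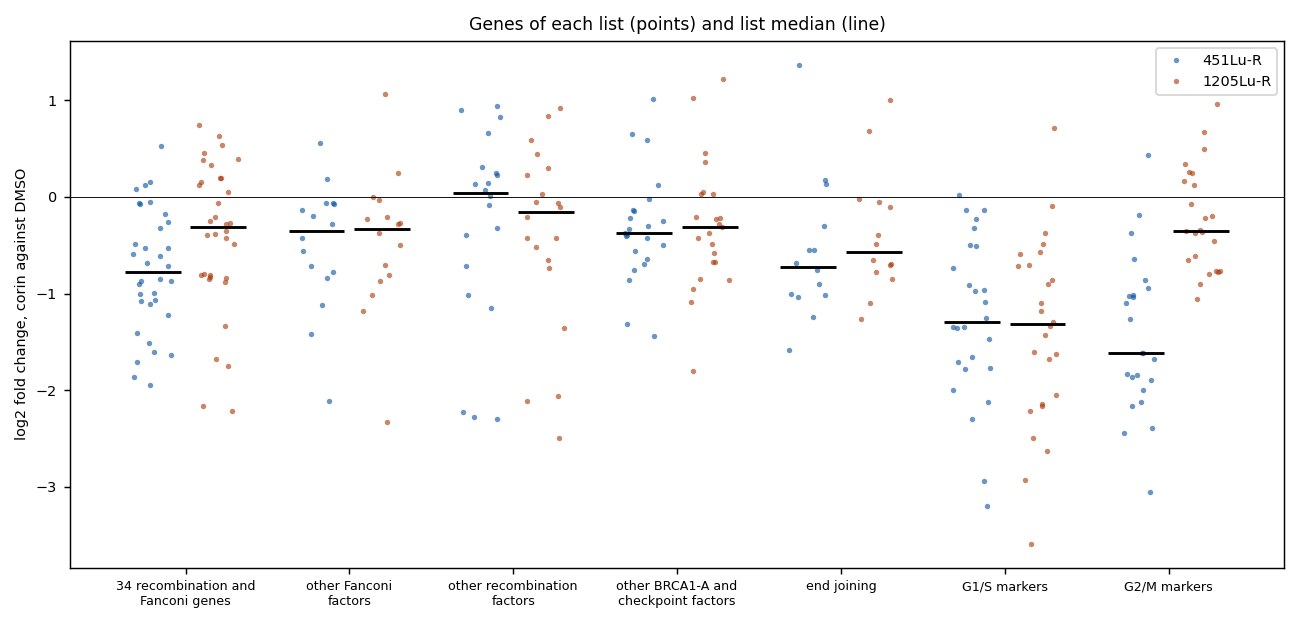
Log2 fold change with corin against DMSO of each gene (points) and the median (black line) for the 34 genes and the lists compared with them, in 451Lu-R (blue) and 1205Lu-R (red-brown). The medians of the 34 genes are -0.78 and -0.31, those of the G1/S markers -1.30 and -1.31, and those of the G2/M markers -1.61 and -0.35.

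The phase markers that changed most were *UNG* and *CDCA7* for G1/S and *HMMR* and *CENPF* for G2/M. *UNG*, a glycosylase that removes uracil from DNA, fell in both lines (log2 -2.94 ± 0.12 and -3.59 ± 0.09), as did *CDCA7* (log2 -3.19 ± 0.16 and -1.62 ± 0.06). *HMMR*, a spindle protein, had 80.1 and 84.5 CPM against 9.83 and 8.60 CPM in 451Lu-R (log2 -3.05 ± 0.09) and 91.5 and 92.2 CPM against 103 and 106 CPM in 1205Lu-R (log2 0.12 ± 0.04), where the call was lost without either DMSO library or corin replicate 2 (0.09 to 0.10). *CENPF*, a kinetochore protein, fell from 200 and 203 CPM to 34.4 and 34.6 CPM and from 230 and 240 CPM to 178 and 183 CPM (log2 -2.45 ± 0.05 and -0.45 ± 0.04). A higher response in 1205Lu-R than in 451Lu-R was called for all 24 G2/M markers and 6 of the 26 G1/S markers. It was called for 14 of the 34 genes, against 22.6% of all genes tested, and a relation to the markers was not tested.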

How the data were processed

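Polyadenylated RNA of the 4 groups was analysed in 8 libraries. The authors trimmed reads with Trimmomatic and quantified them with Salmon on GENCODE 32 transcripts. As deposited, the table holds these estimated counts summed per gene, without normalization. Tool versions are not given in the sources used here. The authors also deposited, for PLX4032 plus corin against PLX4032, log2 fold changes and adjusted p-values of their own comparisons, which were not used. Symbols (34052 of 34228 identifiers) and exonic lengths, the union of all annotated exons, came from GENCODE 44, and promoters from RefSeq. Besides the members named above for it, others also share exonic bases with another gene. Among them are *RAD50* (8124 bases, unnamed gene on the same strand) and, with a gene on the other strand, *FANCA* (2409, *ZNF276*), *NBN* (827, *OSGIN2*), *RAD54L* (813, *LRRC41*) and *FANCL* (572, *VRK2*). The members and lists were chosen with earlier results of these data known.

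Counts were rounded and tested with edgeR 4.0.16 in R 4.3.3 (filterByExpr, TMM, glmQLFit, glmQLFTest, 2-sided, Benjamini-Hochberg over all genes tested), pairwise within a line, between the DMSO groups, and with an interaction term over 8 libraries. TMM factors over all 8 libraries without a filter were 0.959 to 1.04, and each fit computed its own after the filter. SE is the absolute log2 fold change divided by the root of the F statistic. CPM values are not TMM-scaled, and fold changes are. DESeq2 1.42.0 and other scalings, filters and left-out libraries were alternatives. The procedure was also run on simulated counts in which few genes changed. Most genes were called in the real corin comparisons, so that run cannot test the scaling between these libraries. The counts of the 2 libraries of a group differed by more than sampling noise (chi-square per degree of freedom 1.34 to 1.40), so none was a copy. Named genes were all 34 members and, of each further list, the 2 with the largest absolute log2 fold change in either corin comparison at an FDR under 0.05 and a mean of at least 1 CPM, where the rule fixed at the start allowed 4. Some genes of these lists are not reported here and were left out of the list counts.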

Additional observations from a re-analysis of the deposited data

Results flagged for a closer look

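The response to corin differed between 1205Lu-R and 451Lu-R for 16 of the 34 genes at an FDR under 0.05 (edgeR, interaction term). This was near the share of all genes tested, 49.7%, so the number of calls does not set the 34 apart. In log2 units, as 1205Lu-R minus 451Lu-R, the difference was 2.21 for *CHEK2*, 1.53 for *ATM*, 1.01 for *PALB2*, 0.94 for *BRCA2*, 0.75 for *RAD50*, 0.73 for *MRE11*, 0.69 for *FANCM* and 0.69 for *DNA2*. It was 0.68 for *FANCI*, 0.65 for *FANCD2*, 0.55 for *RAD51C*, 0.46 for *XRCC2*, 0.27 for *RBBP8* and 0.25 for *NBN*. It was negative for *BARD1* (-0.87) and *FANCE* (-1.73), the genes with the deeper fall in 1205Lu-R.

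Of the other named genes, the response also differed for *EME1* (1.17), *POLQ* (0.44), *CDCA7* (1.53), *HMMR* (3.13) and *CENPF* (1.95), which were higher in 1205Lu-R, and for *TOPBP1* (-0.40), *LIG4* (-0.72) and *UNG* (-0.69), which were lower. Without corin replicate 1 of 451Lu-R the call for *UNG* (-0.53) was lost, and with library size only in place of TMM scaling that for *TOPBP1* (-0.19).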

How the results depend on the processing

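The 26 falls in 451Lu-R came to between 24 and 26, and the 20 falls in 1205Lu-R to between 16 and 21, under every alternative without a fold limit. With a fold of 2 or more added, 451Lu-R had 12 genes that fell and 0 that rose, 1205Lu-R had 5 and 0, the response was lower for 1 gene and higher for 3, and 4 genes were lower and 9 higher in 1205Lu-R with DMSO. The 2 rises in 451Lu-R were 0 with DESeq2, 0 with library size only, 0 without a filter, and 0 to 1 with each library left out. The 8 rises in 1205Lu-R were 5 with DESeq2. A left-out library leaves 1 in its group, which is assumed to vary like the others. Library size only moved the median of all genes by 0.21 in the interaction (5344 genes higher and 3003 lower, against 3625 and 4359) and by -0.11 between the DMSO groups, and for corin against DMSO it shifted without a filter by 0.16 (451Lu-R) and 0.24 (1205Lu-R).

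None of the values that changed sign was called in the fit with every library and TMM scaling. *RAD51D* between the DMSO groups was called without 451Lu-R DMSO replicate 1 (-0.32), as reported above. With library size only, the values that changed sign were *RBBP8* (-0.019) in 451Lu-R, *RAD52* (0.016) in 1205Lu-R, *FANCG* (0.13) in the interaction and *FANCF* (-0.042) between the DMSO groups. With each library left out in turn, *FANCF* ran from -0.14 to 0.024 and *RAD52* from -0.44 to 0.035 in 451Lu-R, and *FANCM* from -0.034 to 0.097 and *RAD52* from -0.18 to 0.067 in 1205Lu-R. In the interaction, *FANCG* ran from -0.17 to 0.077, *RAD51D* from -0.27 to 0.46, *RAD52* from -0.11 to 0.37, *RAD54L* from -0.065 to 0.17, *RAD54B* from -0.088 to 0.12, *EXO1* from -0.041 to 0.23 and *RAD51AP1* from -0.0034 to 0.31. Between the DMSO groups, *FANCF* ran from -0.018 to 0.14, *BRCA2* from -0.22 to 0.091 and *RAD51D* from -0.32 to 0.075. The cause was not tested.

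Replicate numbers did not pair the libraries (r = -0.030 for 451Lu-R and 0.017 for 1205Lu-R). With the replicate block, 1 gene rose in 451Lu-R (the *FANCB* call was lost), and in 1205Lu-R *FANCL* and *DNA2* were called and *BLM* was not.

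DESeq2 did not call *FANCB*, *FANCE*, *RAD51B* and *RAD51C* in 451Lu-R, *FANCB*, *BRIP1*, *BRCA2*, *RAD51B*, *RAD54B*, *BLM*, *ATR* and *HMMR* in 1205Lu-R, *XRCC2*, *RBBP8* and *DNA2* in the interaction, or *FANCA*, *XRCC3*, *MRE11* and *RBBP8* between the DMSO groups. Library size only did not call *FANCB* and *RAD51C* in 451Lu-R, *BRCA2* and *BLM* in 1205Lu-R, or *FANCA* and *NBN* between the DMSO groups.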
